A study of Mus musculus with 16 samples.

Results

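Transcripts of the choroid plexus, the tissue that secretes the cerebrospinal fluid, were counted together with Igfbp2 in bulk RNA of CD11b+ cells sorted from the mouse brain. The 10 genes described are Igfbp2 and 9 choroid plexus transcripts, Ttr, Enpp2, Folr1, Prlr, Kcnj13, Kl, Clic6, Otx2 and Aqp1, which are 10 of 55385 genes listed in the table and were found there by symbol. They were picked because Igfbp2 had been seen to be lower in Card9-/-5xFAD than in 5xFAD libraries of these same data, and the question was whether Igfbp2 followed the choroid plexus genes from library to library. Igfbp2 was present at low levels in most libraries, and its level moved over the 16 libraries with those of most choroid plexus genes. It moved closely with Enpp2 (Spearman's rho 0.88) and less closely with Ttr (0.68, or 0.84 without Card9-/-5xFAD replicate 4). The highest value was that of Kcne2 (0.97), which is not among the 10 genes and was picked for this likeness. All 8 of the 10 genes that were expressed highly enough to be fitted were lower in Card9-/-5xFAD than in 5xFAD libraries. Igfbp2 was picked for that direction. The 7 choroid plexus genes beside it moved together over the libraries, so they do not count as separate observations. In the fit of all libraries the difference was largest for Igfbp2 among the 8. Nothing is read from that rank, since Igfbp2 was picked on this comparison.

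The study asked how the loss of Card9, an adaptor protein that passes on signals from innate immune receptors such as Dectin-1, changes microglia in a mouse model of Alzheimer's disease. Each of the 16 libraries held RNA of cells sorted with CD11b magnetic beads from the brain of female mice labelled as 20 wk old, after the meninges and the choroid plexus had been taken out. There were 4 libraries each of WT mice, with Card9 and without transgenes, of Card9-/- mice, which lack Card9 in all tissues and carry no transgenes, of 5xFAD mice, with Card9 and with human transgenes of familial Alzheimer's disease driven by the neuronal Thy1 promoter, and of Card9-/-5xFAD mice, with both. No source used here says whether a library held cells of 1 mouse or of several, so the spread between libraries may be in part technical.

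The depth of the libraries was 2970148 to 19333325 reads on genes (median 7944265), with the fewest in Card9-/-5xFAD replicate 4 and Card9-/- replicate 4. Reads of Card9 itself lay between 9.73 and 51.3 CPM (read counts scaled to a common library size) in all 16 libraries, at 16.7 to 34.8 CPM in the libraries labelled Card9-/- and at 13.6 to 51.3 CPM in those labelled WT. The groups overlapped, so the counts of Card9 do not check the Card9 labels, and which exons the allele lacks is not given in the sources used here. All genotypes below are as labelled. Microglial genes were high in every library, with Cx3cr1 between 2384 and 6734 CPM and P2ry12 between 1764 and 6307 CPM. In Card9-/-5xFAD replicate 1 the 9 choroid plexus genes had 32 reads in all, against 164 to 14090 reads in the other 15 libraries, so results are also given without that library and WT replicate 3, the library with the next lowest level. In bulk RNA, fewer cells of a type and less RNA per cell cannot be told apart.

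The choroid plexus epithelium is a single layer of cells around fenestrated capillaries in the ventricles. It makes cerebrospinal fluid by moving ions and water from blood to ventricle, and it secretes carrier proteins and growth factors into that fluid. Ttr encodes transthyretin, a carrier of thyroid hormone, and is the most abundant transcript of this epithelium. Enpp2 encodes autotaxin, the secreted enzyme that makes lysophosphatidic acid, and Kl encodes klotho, the co-receptor of FGF23. Folr1 encodes a folate receptor that carries folate across the epithelium, and Prlr encodes the prolactin receptor. Kcnj13 encodes a potassium channel of the apical membrane, Clic6 a chloride channel family protein and Aqp1 a water channel. Otx2 is a homeodomain transcription factor needed for the formation of the choroid plexus. Igfbp2 encodes a secreted protein that binds the insulin-like growth factors IGF1 and IGF2. In the brain its mRNA is known from the choroid plexus epithelium as well as from astrocytes and the leptomeninges.

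By the GENCODE M21 annotation of GRCm38, Igfbp2 lies on the plus strand of chromosome 1 at chr1:72824503-72852474, and no other gene of that annotation overlaps it. The same holds for Ttr, Kl (chr5:150952607-150993817) and Aqp1 (chr6:55336432-55348555). Among the other genes, 4 share exon bases with an overlapping gene, which could add or take reads since the strand setting of the counting is not given in the sources used here. Kcnj13 (chr1:87386363-87394729) shares 623 exon bases with Gigyf2 on the opposite strand, and Enpp2 (chr15:54838901-54952892) shares 345 with Gm26684, also on the opposite strand. Prlr (chr15:10177238-10349180) shares 203 exon bases with Gm21973 on its own strand, and Otx2 (chr14:48657677-48673819) shares 154 and 168 with Otx2os1 and Gm49154. Folr1 (chr7:101858331-101870788) lies inside the span of Anapc15 only in part and shares no exon base with it, and Clic6 (chr16:92485736-92541243) shares none with 2410124H12Rik. Kcne2 (chr16:92292389-92298129), the gene whose pattern was most like that of Igfbp2, overlaps no annotated gene.

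The bases before the transcription start are shown for Igfbp2, for Kcne2 and for 2 choroid plexus genes that moved with it, since these genes varied together over the libraries. RefSeq promoter sequence of GRCm38.p6 was at hand for 6 of the 10 genes, with 12 starts, and not used here for Ttr, Folr1, Clic6 and Enpp2. Each line gives the 250 bases before a start, 5′ to 3′ on the strand of the gene, and capitals mark a GC box (GGGCGG), the letters of a CCAAT box or the core letters of an Otx-type homeodomain site (TAATCC), each searched on both strands. The stretches are chr1:72824230-72824479 (plus strand) for Igfbp2, chr16:92292139-92292388 (plus) for Kcne2, chr5:150952357-150952606 (plus) for Kl and chr1:87394730-87394979 (minus) for Kcnj13.
Igfbp2: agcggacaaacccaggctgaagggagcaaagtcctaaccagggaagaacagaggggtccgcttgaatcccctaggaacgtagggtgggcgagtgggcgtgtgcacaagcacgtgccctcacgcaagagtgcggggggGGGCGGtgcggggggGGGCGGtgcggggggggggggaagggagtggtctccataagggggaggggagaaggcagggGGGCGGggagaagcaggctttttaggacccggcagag
Kcne2: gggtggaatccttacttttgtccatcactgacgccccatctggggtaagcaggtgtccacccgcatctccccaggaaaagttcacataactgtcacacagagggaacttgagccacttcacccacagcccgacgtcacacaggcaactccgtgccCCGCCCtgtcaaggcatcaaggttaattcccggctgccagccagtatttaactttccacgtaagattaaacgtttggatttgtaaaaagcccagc
Kl: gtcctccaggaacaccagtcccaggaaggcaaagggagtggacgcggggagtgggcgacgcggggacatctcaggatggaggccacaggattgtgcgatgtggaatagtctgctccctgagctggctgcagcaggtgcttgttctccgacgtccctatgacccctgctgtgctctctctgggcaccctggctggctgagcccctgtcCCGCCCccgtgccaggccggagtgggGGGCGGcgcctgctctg
Kcnj13: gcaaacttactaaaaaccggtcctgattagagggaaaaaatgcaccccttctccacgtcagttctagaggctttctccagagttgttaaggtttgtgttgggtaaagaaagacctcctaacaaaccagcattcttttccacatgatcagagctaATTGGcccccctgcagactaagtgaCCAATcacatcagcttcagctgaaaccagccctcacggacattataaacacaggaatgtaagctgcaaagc

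The Igfbp2 stretch held 3 GC boxes and the Kl stretch 2, and both were rich in G and C (67.2% and 66.8%). The Kcne2 stretch held 1 GC box at 52.4% G and C. The Kcnj13 stretch held no GC box but 2 CCAAT boxes, 1 on each strand, at 45.2% G and C. Over all 32851 mouse promoters of this length, 32.7% held at least 1 GC box and 8.47% held 3 or more, while 33.8% held a CCAAT box and 6.25% the Otx-type letters. Of the 12 starts of the 6 genes, 3 had a GC box, 3 a CCAAT box and 1, a start of Otx2, the Otx-type letters. No motif was shared by the Igfbp2, Kcne2, Kl and Kcnj13 stretches, and the matches are letters in a window, not sites at which a factor was shown to bind.

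Levels of the 10 genes differed widely. Per length of exon and library size (RPKM), Ttr had the highest mean level over the 16 libraries, 516 RPKM, followed by Enpp2 with 20.5, Igfbp2 with 4.68, Folr1 with 3.23 and Kcnj13 with 1.85 RPKM. Clic6 (0.357 RPKM), Prlr (0.331 RPKM) and Kl (0.234 RPKM) were lower, and Otx2 and Aqp1 were at 0.10 and 0.0334 RPKM. Each gene ranged over the libraries from 0 or near 0 to several times its mean, so the ranges of all neighbours in this order overlapped. Aqp1 had 12 reads in all 16 libraries together, 11 of which had none, and Otx2 had 50 reads, so these 2 genes were below the minimum count and 8 of the 10 genes were fitted. The water channel and the transcription factor, both known markers of this epithelium, were thus barely detectable at this depth.

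Igfbp2 was at 6.16, 36.5, 0.662 and 2.03 CPM in WT replicates 1 to 4 and at 5.76, 3.19, 1.72 and 15.05 CPM in Card9-/- replicates 1 to 4. In the 5xFAD libraries it was at 7.73, 6.85, 22.3 and 24.8 CPM, and in the Card9-/-5xFAD libraries at 0.197, 1.03, 3.48 and 0.801 CPM. All 4 Card9-/-5xFAD libraries thus lay below all 4 5xFAD libraries, which is the difference by which the gene was picked, whereas the WT libraries spanned the values of both groups except the lowest. The read numbers behind the low values are small, with 2, 9, 20 and 2 reads of Igfbp2 in the Card9-/-5xFAD libraries and 50 to 182 in the 5xFAD libraries.

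Ttr was at 1591, 699, 14.0 and 51.7 CPM in WT replicates 1 to 4 and at 199.8, 43.8, 80.5 and 2479 CPM in Card9-/- replicates 1 to 4. The 5xFAD libraries had 1306, 254.8, 842 and 572 CPM of Ttr, and the Card9-/-5xFAD libraries 0.197, 27.8, 500.3 and 1125 CPM. Every pair of genotypes overlapped, and the 2 libraries with the most Ttr among the Card9-/-5xFAD samples lay within the range of the 5xFAD libraries. With an SD of 3.32 on the log2 CPM scale within genotypes, Ttr was the most variable of the 14513 genes that passed the minimum count, where the median gene had 0.622.

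Enpp2 was at 119.4, 456, 3.42 and 19.9 CPM in the WT libraries and at 87.3, 44.2, 30.0 and 506 CPM in the Card9-/- libraries. It was at 134.8, 31.8, 120.0 and 212.6 CPM in the 5xFAD libraries and at 0.0987, 13.3, 44.5 and 76.5 CPM in the Card9-/-5xFAD libraries. As for Ttr, WT replicate 3 and Card9-/-5xFAD replicate 1 were lowest, and Card9-/- replicate 4 was highest. Its SD within genotypes, 2.57, ranked 6 among all genes, and the other 6 fitted genes had an SD of 1.25 to 1.98, each above the median gene.

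Folr1 was at 10.2, 20.8, 0.110 and 0.642 CPM in WT, at 3.72, 1.32, 1.13 and 11.4 CPM in Card9-/-, at 19.4, 6.85, 13.3 and 12.5 CPM in 5xFAD and at 2.86, 3.42, 8.52 and 2.40 CPM in Card9-/-5xFAD libraries. In Card9-/-5xFAD replicate 1 it had 29 of the 32 choroid plexus reads, while Ttr had 2 and Enpp2 had 1. Ttr made up 6.25% of the choroid plexus reads of that library and 46.9% to 93.2% in the other 15 libraries. Folr1 in that library therefore stood apart from the other choroid plexus genes, which were near or at 0, and the cause was not tested.

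Prlr ranged from 0 to 28.8 CPM over the 16 libraries, Kcnj13 from 0 to 9.41, Kl from 0 to 7.04 and Clic6 from 0 to 5.31 CPM. Prlr was highest in Card9-/- replicate 4, as Ttr was, whereas Kcnj13 was highest in WT replicate 2, as Igfbp2 was, and was at only 0.654 CPM in Card9-/- replicate 4. Kl had no reads in WT replicate 3 and in Card9-/-5xFAD replicates 1 and 4. Summed over the 9 choroid plexus genes, the level was 18.1 to 1749 CPM in WT, 93.4 to 3035 CPM in Card9-/-, 298 to 1478 CPM in 5xFAD and 3.16 to 1208 CPM in Card9-/-5xFAD libraries. The 4 genotypes overlapped in this sum, and the spread within each exceeded the differences between their means.

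**Figure D1:**
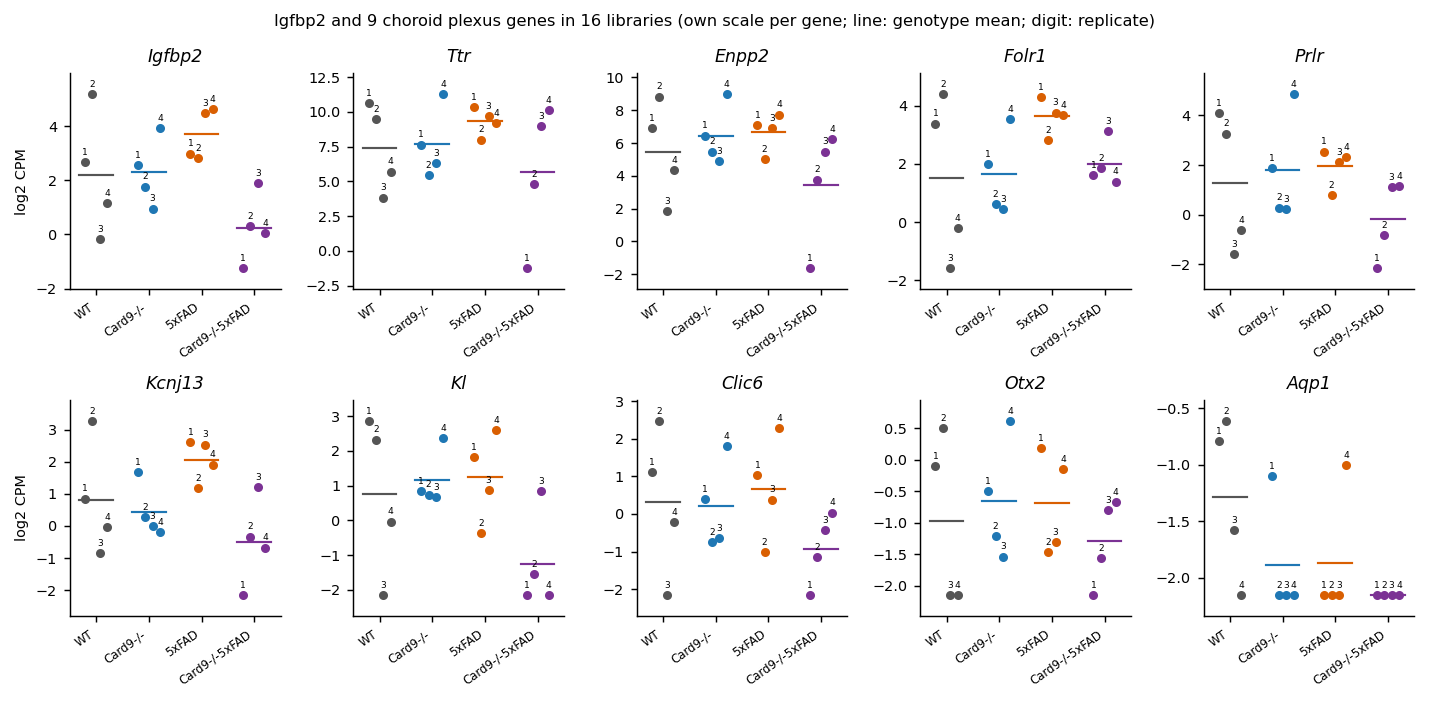
Level of Igfbp2 and of the 9 choroid plexus genes in each of 16 libraries, as log2 CPM with a prior count of 2, on an axis of its own for each gene. Points are libraries, digits their replicate numbers and lines the genotype means (n = 4). For Igfbp2 no Card9-/-5xFAD library reaches the lowest 5xFAD library, whereas for Ttr the points of all genotypes overlap.

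Across the 16 libraries the pattern of Igfbp2 was compared with that of each other gene by Spearman's rho of the log2 CPM values, given as a description with no p since the genes were chosen with results of these data known. The 5 genes with the highest rho among 14512 were Kcne2 (rho 0.97), Car12 (0.94), Col8a1 (0.93), Atp1b1 (0.90) and Steap1 (0.90). All 5 were low, with a mean over the libraries of 1.18 CPM (Steap1) to 2.57 CPM (Atp1b1), so their ranks rest on few reads. Col8a1, for one, had no reads in Card9-/-5xFAD replicates 1, 2 and 4. Kcne2 encodes a potassium channel subunit of the apical membrane of the choroid plexus epithelium, Car12 a membrane-bound carbonic anhydrase and Atp1b1 a subunit of the sodium-potassium pump. Col8a1 encodes a chain of type VIII collagen and Steap1 a membrane metalloreductase family protein. Of these 5, all but Atp1b1 stand on the list of 29 further choroid plexus markers found in the table, and Atp1b1 stands on the list of transporters of cerebrospinal fluid secretion.

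All 7 choroid plexus genes that were fitted were among the 100 genes most like Igfbp2. Enpp2 had a rho of 0.88 with Igfbp2 (rank 10), Folr1 0.86 (rank 11), Kcnj13 0.85 (rank 14), Kl 0.85 (rank 15), Prlr 0.83 (rank 17) and Clic6 0.81 (rank 19). Ttr came last of the 7, with a rho of 0.68 and rank 46, and its rho was 0.84 without Card9-/-5xFAD replicate 4. For scale, the median rho of all genes with Igfbp2 was -0.04, and 5% to 95% of genes lay between -0.41 and 0.36. Of the 19 further choroid plexus markers that were fitted, 12 were among the 100 genes most like Igfbp2, with a median rho of 0.72 over the 19. The libraries are the points of each correlation, so the values share library, depth and sort.

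**Figure D2:**
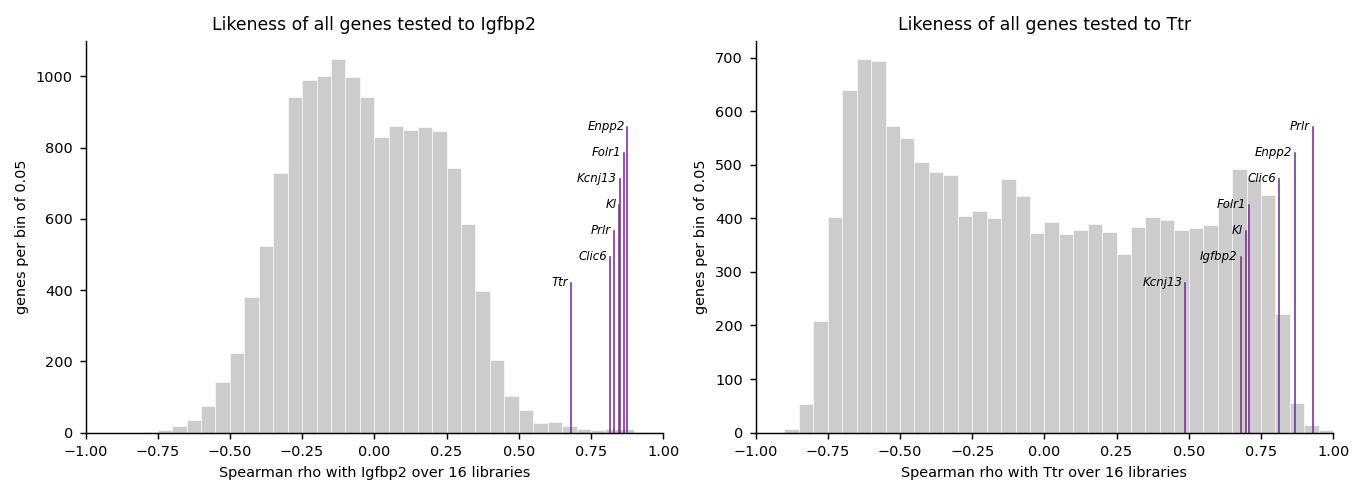
Number of genes per bin of 0.05 of Spearman's rho with Igfbp2 (left) and with Ttr (right), over 14512 genes and 16 libraries, with lines at the fitted members. The members lie in the far right tail for Igfbp2, from 0.68 for Ttr to 0.88 for Enpp2, whereas the values for Ttr spread over a wide range and Igfbp2 is not in its tail.

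Igfbp2 had more reads than Kcne2 in every library, and its share of the reads of the 2 genes was compared between libraries. Kcne2 was at 0.880, 8.81, 0.221 and 0.428 CPM in WT, at 0.961, 0.827, 0.830 and 3.27 CPM in Card9-/-, at 2.43, 1.51, 5.58 and 4.49 CPM in 5xFAD and at 0, 0.114, 1.22 and 0 CPM in Card9-/-5xFAD libraries. Igfbp2 took 81.0% of the reads of the 2 genes over all libraries, and the 95% exact binomial (Clopper-Pearson) interval of the share held that value in 15 of the 16 libraries. The intervals cover counting error only and are wide where reads are few. Kcne2 was also picked for its likeness to Igfbp2, so the share is a description of these libraries. In the 13 libraries with at least 10 reads of the 2 genes the share lay between 67.4% and 90%. In the 5xFAD libraries it was 76.1%, 82.0%, 80.0% and 84.7%, and in Card9-/-5xFAD replicates 2 and 3 it was 90% (interval 55.5% to 99.8%) and 74.1% (53.7% to 88.9%). The other two Card9-/-5xFAD libraries had 2 reads of Igfbp2 and none of Kcne2, which allows shares from 15.8% upward.

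The share of Igfbp2 relative to Ttr was far from constant. There were 0.387, 5.22, 4.72 and 3.93 reads of Igfbp2 per 100 reads of Ttr in the WT libraries and 2.88, 7.27, 2.13 and 0.607 in the Card9-/- libraries. The 5xFAD libraries had 0.592, 2.69, 2.65 and 4.33, and Card9-/-5xFAD replicates 2, 3 and 4 had 3.69, 0.695 and 0.0712, while replicate 1 had 2 reads of each gene. The interval of the share held the pooled value in 4 of 16 libraries. Ttr had far more reads than Kcne2, which narrows these intervals, so this count cannot be set against that for Kcne2. Over the 13 libraries with at least 10 reads of Igfbp2 and Kcne2, the ratio of Igfbp2 to Ttr differed by up to 18.8-fold, that to Enpp2 by 7.25-fold and that to Kcne2, the gene picked for its likeness, by 4.35-fold. With Card9-/-5xFAD replicate 4, which had 2 reads of Igfbp2 and none of Kcne2, the ratio to Ttr differed by up to 102.2-fold over 15 libraries. In each of the 4 genotypes the library with the most Ttr (WT replicate 1, Card9-/- replicate 4, 5xFAD replicate 1 and Card9-/-5xFAD replicate 4) had the lowest ratio, in which Ttr is the denominator.

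Relative to Enpp2, Igfbp2 had 5.16, 7.99, 19.4 and 10.2 reads per 100 in WT and 6.60, 7.20, 5.73 and 2.97 in Card9-/- libraries. The values were 5.74, 21.6, 18.6 and 11.7 in 5xFAD libraries and 7.69, 7.81 and 1.05 in Card9-/-5xFAD replicates 2 to 4, with 2 reads against 1 in replicate 1. The lowest value, in Card9-/-5xFAD replicate 4, rested on 2 reads of Igfbp2 and 191 of Enpp2 (share 1.04%, interval 0.126% to 3.69%). That library, the shallowest, had more Ttr than 3 of the 4 5xFAD libraries but no read of Kcne2 or Kl, and without it the rho of Igfbp2 and Ttr was 0.84 in place of 0.68.

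**Figure D3:**
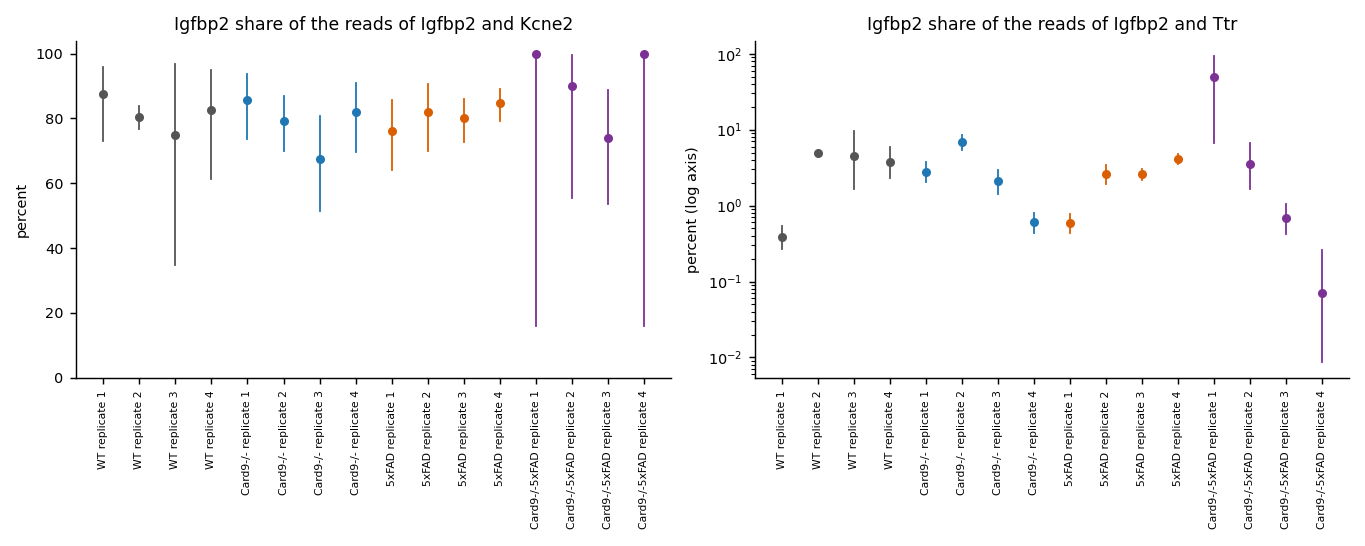
Reads of Igfbp2 as a percentage of the reads of Igfbp2 and Kcne2 (left, linear axis) and of Igfbp2 and Ttr (right, log axis) in each of 16 libraries. Points are the shares and bars their 95% exact binomial intervals, which cover counting error only. On the left 15 of 16 intervals hold the pooled share of 81.0%, and on the right 4 of 16 hold the pooled share of 2.02%. Intervals are wider where reads are few, and Kcne2 had far fewer reads than Ttr, so the 2 counts are not comparable.

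**Figure D4:**
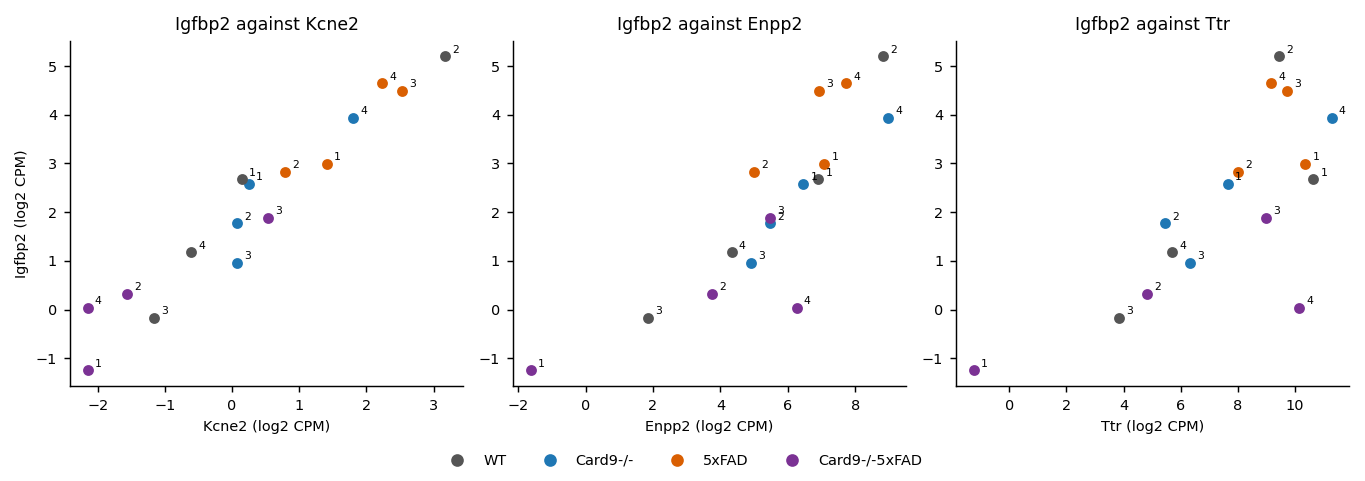
Igfbp2 against Kcne2, Enpp2 and Ttr, each as log2 CPM with a prior count of 2, in 16 libraries coloured by genotype and numbered by replicate. The points lie along a line for Kcne2 (rho 0.97), more loosely for Enpp2 (rho 0.88), and for Ttr (rho 0.68) Card9-/-5xFAD replicate 4 lies apart from the others.

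The 5 genes of highest rho with Ttr were others than those of Igfbp2, namely 2900040C04Rik (0.98), Fxyd1 (0.97), Defb11 (0.97), Ecrg4 (0.96) and Cox8b (0.96), of which Fxyd1 encodes a regulator of the sodium-potassium pump and Ecrg4 a secreted peptide precursor of the choroid plexus. Prlr (rho 0.93) and Enpp2 (0.87) followed Ttr more closely than Kl (0.70) and Kcnj13 (0.49) did. Ttr also moved with depth, with a rho of -0.75 with the reads counted on genes. The same rho was -0.58 for Prlr, -0.49 for Enpp2, -0.45 for Clic6, -0.37 for Folr1 and -0.32 for Kl. It was -0.26 for Igfbp2, -0.20 for Kcne2 and -0.10 for Kcnj13. At 5% to 95% of all genes the rho with Ttr lay between -0.69 and 0.75, so a high rho with Ttr was common among all genes. The part of depth in the likeness to Ttr was not tested.

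The 9 choroid plexus genes were also taken as 1 level in each library, averaging the log2 CPM values of the 7 fitted genes. Igfbp2 followed this mean with Pearson's r of 0.90 and rho of 0.89, and with r of 0.88 once genotype means were subtracted. Without Card9-/-5xFAD replicate 1 and WT replicate 3, the 2 libraries farthest from the median of the mean, r was 0.85. With the mean of the 19 further choroid plexus markers the r was 0.88 and the rho 0.89.

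The means of marker lists of other cells had lower values with Igfbp2. The rho with Igfbp2 was 0.59 for the mean of 6 oligodendrocyte genes, 0.50 for 11 astrocyte genes, 0.49 for 3 ependymal genes, 0.46 for 6 pericyte and smooth muscle genes and 0.40 for 11 endothelial genes. It was 0.26 for 12 microglial genes, 0.23 for 6 genes of meningeal and perivascular fibroblasts and 0.01 for 4 neuronal genes. Single markers of other cells were nearer to Igfbp2, with 2 of 6 oligodendrocyte genes, 1 of 11 astrocyte genes and 1 of 3 ependymal genes among the 100 most like it. The myelin gene Mobp (rho 0.71, rank 37) stood above Ttr, and Mbp had a rho of 0.58 (rank 92). For transporters of cerebrospinal fluid secretion (10 genes) it was 0.46. Of its abundant members, Slc12a2 and Slc4a2, which many cell types express, had rho values of -0.01 and -0.02 with Igfbp2.

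Genes of the insulin-like growth factor system were less like Igfbp2. The mean of the 9 that were fitted beside Igfbp2 had a rho of 0.24 with it. The 3 most abundant were Igf1 (rho 0.02), the binding protein gene Igfbp4 (0.03) and the insulin receptor gene Insr (-0.40), and no gene of the list was among the 100 most like Igfbp2, the nearest being Igfbp7 (0.56, rank 105), named after its value was seen. Igf1, which microglia express, rose with the transgenes, by 3.42 on the log2 scale (SE 0.38, with an adjusted p of 0.000118 in edgeR's quasi-likelihood test with Benjamini-Hochberg adjustment) in 5xFAD against WT and by 3.25 (SE 0.38, with an adjusted p of 0.000217 in edgeR) in Card9-/-5xFAD against Card9-/- libraries. It was at 392 to 739 CPM in 5xFAD and at 366 to 724 CPM in Card9-/-5xFAD libraries, so these overlapped where Igfbp2 did not.

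**Figure D5:**
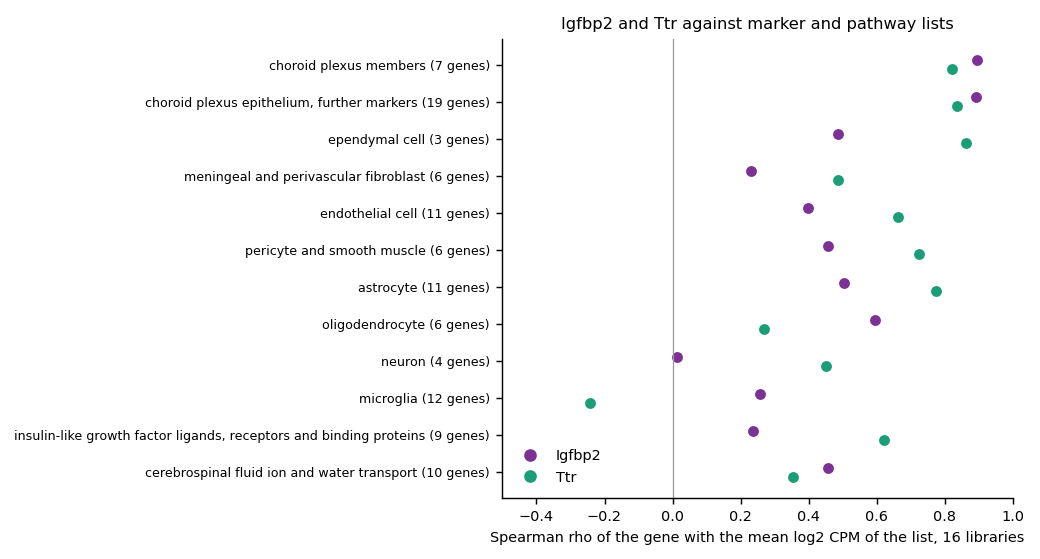
Spearman's rho over 16 libraries between Igfbp2 or Ttr and the mean log2 CPM of each marker or pathway list, with the number of fitted genes in brackets (for Ttr, the first list holds the other 6). The choroid plexus lists give the highest values for Igfbp2 (0.89), and Ttr also has a rho above 0.6 with the ependymal, astrocyte, endothelial, pericyte and insulin-like growth factor lists. For Ttr the value with the ependymal list (0.86, 3 genes) is above those with the choroid plexus lists (0.82 and 0.84).

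In Card9-/-5xFAD against 5xFAD, the comparison by which Igfbp2 was picked, the fitted log2 fold changes are given as a description with no test. Igfbp2 differed by -3.49 (SE 1.12) on the log2 scale, Kl by -2.74 (SE 1.28), Clic6 by -2.64 (SE 1.29), Kcnj13 by -2.48 (SE 1.04) and Prlr by -2.11 (SE 1.43). Enpp2 (-1.91, SE 1.35), Folr1 (-1.58, SE 1.02) and Ttr (-0.85, SE 1.59) differed by less. Without Card9-/-5xFAD replicate 3, which held 9 of the 10 reads of Kl in that group, Kl was at -5.57 and Igfbp2 at -4.56, and without Card9-/-5xFAD replicate 4, Ttr was at -2.08. All 8 were lower, and the 7 choroid plexus genes had a median of -2.11 where the median of all genes tested was 0.14. Without Card9-/-5xFAD replicate 1 and WT replicate 3 all 7 were still lower, with a median of -1.59, and Igfbp2 was at -3.08. Igfbp2 was the only one of the 8 whose groups did not overlap, beside 1.89% of all 14513 genes (0.923% for lower values), and nothing is read from this since the gene was picked on it. Across all genes this comparison had 0 calls (0% of 14513) at an adjusted p under 0.1 in edgeR's quasi-likelihood test and 366 genes (2.52%) at an unadjusted p under 0.05. DESeq2 called 2 genes on all libraries and 9 on these 8 libraries alone. Igfbp2 was among the 9, and nothing is read from that call either, since the gene was picked on these libraries.

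The size of the Igfbp2 difference depended on what it was set against. With the mean of the 9 choroid plexus genes as a covariate in the same fit the log2 fold change of Igfbp2 was -1.70, and with Ttr as the covariate it was -2.24, against -3.49 without either. Both covariates were themselves lower on average in Card9-/-5xFAD than in 5xFAD libraries, and Igfbp2 was picked on this comparison. The covariate fits therefore cannot split the difference into a choroid plexus part and a remainder. In reads pooled per group, Igfbp2 in Card9-/-5xFAD was 0.0800 times its level in 5xFAD (33 against 407 reads, 95% exact interval 0.0543 to 0.114). The same ratio was 0.127 for Kl, 0.128 for Clic6, 0.160 for Kcnj13, 0.166 for Enpp2 and 0.177 for Prlr. It was 0.303 for Ttr (interval 0.294 to 0.312) and 0.327 for Folr1 (0.262 to 0.405). The intervals of the others were 0.0584 to 0.245 for Kl, 0.0491 to 0.282 for Clic6 and 0.0915 to 0.265 for Kcnj13. For Enpp2 and Prlr they were 0.152 to 0.182 and 0.102 to 0.290. In Card9-/- against WT, without the transgenes, the pooled ratio was also below 1 for each gene, at 0.281 for Igfbp2 and 0.447 for Ttr. The fitted log2 fold change of Ttr there was 0.25, so pooled and fitted values can differ in direction. Pooled reads carry no spread between libraries, and the intervals cover counting error only. Igfbp2 was also picked for its low level in Card9-/-5xFAD against 5xFAD. These ratios and intervals therefore cannot show whether it differed more than the other genes.

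Of the 19 further choroid plexus markers fitted, 16 were lower in Card9-/-5xFAD than in 5xFAD, with a median log2 fold change of -1.88, and 0 passed the adjusted test. Their 3 most abundant members were Cab39l, Ecrg4 and Trpv4. Ecrg4 was at -2.30 (SE 1.31), whereas Cab39l (0.27, SE 0.23) and Trpv4 (0.15, SE 0.60), which other cells can also express, were near 0. Of the markers most like Igfbp2, Col8a1 was at -3.56 (SE 1.40), Kcne2 at -3.36 (SE 1.22), Car12 at -2.87 (SE 1.39) and Steap1 at -2.55 (SE 1.33). They were picked for their likeness to Igfbp2 over the same libraries, so low values here follow from that choice. In Card9-/-5xFAD replicates 1 to 4, Col8a1 had 0, 0, 3 and 0 reads and Kcne2 had 0, 1, 7 and 0. Lists of other cells had medians of 0.85 (pericyte and smooth muscle), -0.03 (endothelial), -0.15 (neuron), -0.16 (microglia), -0.28 (astrocyte), -0.43 (oligodendrocyte), -0.85 (fibroblast) and -1.14 (ependymal, 3 genes), each with 0 calls. Within these lists the myelin genes Mobp (-1.69, SE 0.55) and Mbp (-1.26, SE 0.54) and the astrocyte receptor gene Ntsr2 (-2.07, SE 0.73), the last picked after its value was seen, also had lower fitted levels in Card9-/-5xFAD than in 5xFAD libraries. The part of other cells in the Igfbp2 difference was not tested.

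Card9-/- and WT mice carry no transgenes, and these 8 libraries were not used when Igfbp2 was picked. Igfbp2 had a log2 fold change of -0.89 (SE 0.99) in Card9-/- against WT, with an adjusted p of 0.970 (edgeR). The choroid plexus genes lay between -1.16 (Kcnj13, SE 0.95) and 0.30 (Prlr, SE 1.25), with Ttr at 0.25 (SE 1.58), and the groups of all 8 genes overlapped (2.66% of all genes did not). None of the 8 passed the adjusted test, none had an unadjusted p under 0.05 in edgeR or DESeq2, and in edgeR 0% of all genes passed while 597 (4.11%) had an unadjusted p under 0.05 (DESeq2 called 5 genes on all libraries and 8 on these 8 alone). Leaving out WT replicate 2, the library with the most Igfbp2, turned its log2 fold change to 1.09, so its direction rested on that library. Of the 7 fitted choroid plexus genes, 4 were lower in Card9-/- than in WT in the main fit, with a median of -0.52. Without Card9-/-5xFAD replicate 1 and WT replicate 3, all 7 were lower, with a median of -0.93.

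The remaining comparisons share their libraries with those above. In 5xFAD against WT, Igfbp2 had a log2 fold change of 0.43 (SE 0.97), and the 7 choroid plexus genes lay between -0.72 (Prlr) and 0.71 (Folr1). In Card9-/-5xFAD against Card9-/-, Igfbp2 was at -2.16 (SE 1.10), with Prlr at -3.13 (SE 1.45), Kl at -2.34 (SE 1.29), Enpp2 at -2.33 (SE 1.37), Ttr at -0.76 (SE 1.59) and Folr1 at 0.09 (SE 1.03). None of the 8 genes passed the adjusted test in either comparison, where 2.09% and 1.97% of all genes did, and the groups of all 8 overlapped in both, where those of 8.04% and 7.01% of all genes did not. The interaction of Card9 genotype and transgenes was -2.59 (SE 1.46) for Igfbp2 and between -2.41 (Prlr) and -0.62 (Folr1) for the 7 choroid plexus genes, and none passed, as for 0% of all genes (0.537% at an unadjusted p under 0.05, and 1 gene called by DESeq2). The interaction holds the comparison by which Igfbp2 was picked. Its test therefore cannot decide whether the Igfbp2 difference between Card9 genotypes was larger with the transgenes than without them.

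One gene of the transport list passed in these comparisons. Slc4a10, which encodes a sodium bicarbonate transporter of the choroid plexus epithelium and of neurons, was lower in Card9-/-5xFAD than in Card9-/- libraries (adjusted p = 0.0839, edgeR), with 0 reads in all 4 Card9-/-5xFAD libraries and 75 reads over the 4 Card9-/- libraries. It had 24 reads over the 5xFAD and 40 over the WT libraries, and its rho with Igfbp2 was 0.62. On the marker lists of other cells, Cspg4, which encodes the proteoglycan NG2 of pericytes and oligodendrocyte precursors, and Gfap, an astrocyte filament gene, were called higher with the transgenes in both comparisons, as was Trem2, a microglial receptor gene. Pecam1, an endothelial adhesion gene, was called lower in 5xFAD than in WT. None of these 4 had a rho above 0.25 with Igfbp2.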

How the data were processed

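RNA of CD11b+ cells was sequenced in 16 libraries, 4 per genotype. The authors aligned reads to mm10 with HISAT2, filtered them with SAMtools and counted them per gene with HTSeq, and they deposited whole-number counts without normalization. Symbols that begin with a digit carried a leading X in the table, which was removed. All 16 sample columns were used. The 10 genes and all gene lists were chosen with earlier results of these data known.

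Counts were fitted in R 4.3.3 with edgeR 4.0.16 (quasi-likelihood, all 16 libraries, 4 groups, TMM normalization, filterByExpr at a minimum count of 10, 14513 genes kept), with Benjamini-Hochberg adjustment over all genes and a threshold of 0.1. The SE was taken from the change and its F statistic. CPM used TMM library sizes, and log2 CPM a prior count of 2. RPKM divided CPM by the summed exon length of GENCODE M21. Alternatives included DESeq2 1.42.0. The fit was tested on simulated data. Named genes were the 10 genes, the 5 of highest rho with Igfbp2 and with Ttr, and of each list described the 3 of highest mean CPM and those past the threshold. Kcne2 as a partner in ratios and other single genes beyond this rule were named after their values were seen. Some genes and 1 list that fall under the rule are not reported here. Promoters come from RefSeq (GRCm38.p6).

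No pair of libraries within a genotype was a copy (24 pairs, lowest chi-square per degree of freedom 6.92). Same-numbered libraries deviated together in 5xFAD against WT (r of 0.275 to 0.708) and in Card9-/-5xFAD against Card9-/- (0.128 to 0.734), where the data alone, not the labels, pair the numbers, and not in the other two comparisons (-0.637 to 0.488).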

Additional observations from a re-analysis of the deposited data

Results flagged for a closer look

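Kl in Card9-/- replicate 4 was at 4.91 CPM, where the other 3 Card9-/- libraries lay between 1.36 and 1.56 CPM, and its gap to them on the log2 scale exceeded Dixon's limit for 4 samples. That library was also the one with the most Ttr and Enpp2 and the second fewest reads. Of 35 groups of 4 libraries tested over the 10 genes, 1 stood out, where chance gives about 1 in 20.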

How the results depend on the processing

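All 8 fitted genes were lower in Card9-/-5xFAD than in 5xFAD under each alternative run evaluated for them. These were 25 runs for Igfbp2, 22 for Clic6 and 23 for each other gene, and runs with a covariate are given for Igfbp2 alone. The log2 fold change of Igfbp2 lay between -4.56 (without Card9-/-5xFAD replicate 3) and -1.70 (mean of the choroid plexus genes as a covariate). Leaving out 1 library at a time moved Kl between -5.57 and -2.13 and Ttr between -2.08 and -0.46, and Igfbp2 had the largest difference of the 8 except without Card9-/-5xFAD replicate 3, where Kl did. The rho of Igfbp2 and Ttr kept its sign, between 0.52 and 0.84. Against WT, the small differences of Card9-/- libraries changed sign. With the replicate number as a block, Ttr was at -1.70, Enpp2 at -0.59 and Prlr at -0.79, and without the 2 libraries of lowest choroid plexus level, an alternative chosen after seeing the data, they were at -0.17, -0.28 and -0.13, and Enpp2 was at -0.083 without a filter. Leaving out 1 library at a time gave -2.44 to 1.44 for Ttr, -1.48 to 1.80 for Enpp2, -1.91 to 1.25 for Prlr, -1.08 to 0.19 for Kl, -2.00 to 0.21 for Folr1, -1.75 to 0.42 for Clic6, -1.87 to 0.67 for Kcnj13 and -1.70 to 1.09 for Igfbp2. The cause was not tested.

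Counts of called genes moved more. In Card9-/-5xFAD against 5xFAD they were 0 in the main fit, 1 without a filter, 2 and 9 with DESeq2 on all and on only these libraries, and 0 to 1 without single libraries (1 without Card9-/-5xFAD replicate 3). In Card9-/- against WT they were 0, with 2 without a filter, 5 and 8 with DESeq2 and 0 to 1 without single libraries (1 without 5xFAD replicate 4 and without Card9-/-5xFAD replicate 3). In 5xFAD against WT the 304 calls became 171 with genes of 10 or more counts in each library, 565 and 669 with DESeq2, 164 (without WT replicate 4) to 386 without single libraries, and 159 without the 2 libraries of lowest choroid plexus level. In Card9-/-5xFAD against Card9-/- the 286 calls became 185 without a filter, 148 with that filter, 812 and 433 with DESeq2, 96 with edgeR on only these groups, 162 at a threshold of 0.05, 120 (without Card9-/- replicate 2) to 720 (without Card9-/- replicate 4) without single libraries, and 115 without the 2 libraries of lowest choroid plexus level. The interaction had 1 call with DESeq2 and 0 to 1 without single libraries, in place of 0. The replicate block gave 0, 0, 306 and 340 calls in the 4 comparisons, and of 8 libraries in each, 1, 1, 5 and 5 correlated best with their own number.

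Depth limited the low genes. Igfbp2 had 2 reads in 2 of the Card9-/-5xFAD libraries, and Aqp1 and Otx2 could not be fitted.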
